A study of Mus musculus with 24 samples.

Results

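The receptors of the gp130 family were followed as 6 genes, *Il6st*, *Il6ra*, *Il11ra1*, *Cntfr*, *Lifr* and *Osmr*, out of 55471 genes in the count tables. They were chosen by name, as the shared signalling subunit of the family and the partner receptors for its ligands, and the rule that lists them uses no measured value, although the family was taken up with earlier results of these data known. Their mRNA was compared over 8 groups of mouse 3T3 fibroblasts, with the question of which receptor messages the cells hold for the IL-6 family ligands that they also make.

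Cytokines of the IL-6 family signal through gp130, the membrane protein encoded by *Il6st*, and differ in the receptor that joins it. IL-6, IL-11 and CNTF first bind an alpha subunit (IL-6Rα, IL-11Rα or CNTFRα), which carries the ligand to gp130 but does not signal itself, whereas LIF receptor and OSM receptor pair with gp130 as signalling partners. The assembled receptors activate JAK kinases and above all STAT3, whose target SOCS3 binds gp130 and limits the signal. In fibroblasts gp130 is widely expressed, and the range of ligands that a cell can answer is set largely by which partner it carries.

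The libraries came from immortalized mouse embryonic fibroblasts (3T3 MEFs) of 4 genotypes, each untreated or given IL-1β for 6 hours, with 3 libraries in each of the 8 groups. The genotypes were wild type, *Lkb1*-/-, and 2 clones, A1 and A2, of *Lkb1*-/-/*Crtc2*-/- MEFs. LKB1, encoded by *Stk11*, is a kinase that among other targets activates the salt-inducible kinases, and CRTC2 is a coactivator of CREB that these kinases hold in the cytoplasm. Both clones therefore carry the loss of LKB1 too. They were each grown from a single cell after CRISPR/Cas9 cutting in the first exon of *Crtc2*, so that a value seen in 1 clone cannot be told apart from a property of that clone. Wild-type and *Lkb1*-/- MEFs were each 1 line, and the clones were made from *Lkb1*-/- MEFs. An effect of LKB1 loss therefore cannot be told apart from other differences between the lines.

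Between 38842901 and 48594394 read pairs were counted on genes in a library, with a median of 42431965, and levels are given as CPM, counts scaled to library size with edgeR's TMM factors. *Stk11* lay between 83.4 and 87.9 CPM in the 6 wild-type libraries and between 16.3 and 23.2 CPM in the other 18. *Crtc2* lay between 56.5 and 68.5 CPM in the wild-type libraries, between 79.1 and 84.6 CPM in the *Lkb1*-/- libraries and between 41.1 and 56.4 CPM in those of the clones. Of 9 fibroblast markers 8 were counted in every library, including *Col1a1*, *Col3a1* and *Vim*, while *Thy1* never passed 3 counts. Some of them varied widely over the libraries, *Dcn* from 0.357 to 581 CPM, *Pdgfra* from 3.71 to 605 CPM and *Col1a2* from 28.5 to 912 CPM. The leukocyte markers *Ptprc*, *Adgre1* and *Itgam* had at most 2 counts in any library, and so did the endothelial markers *Cdh5* and *Tie1*. The summed level of the 4 endothelial markers was 0.370 to 0.595 CPM in wild-type MEFs and 2.06 to 3.80 CPM in the other groups, mostly *Kdr*. The 6 leukocyte markers summed to between 6.85 and 22.3 CPM, mostly *Cd14* and most in IL-1β-treated wild-type MEFs (16.7 to 22.3 CPM). Among them, *Csf1r* lay between 0.0261 and 2.37 CPM and was above 3 counts in 20 of the 24 libraries. The 4 epithelial markers summed to between 0.110 and 0.447 CPM, and the 3 hepatocyte markers to at most 0.175 CPM. The part of these marker levels in the receptor values was not tested. Replicate 1 held the lowest value of its group in 8 of 8 groups for *Il6st*, *Il11ra1* and *Lifr*, and in 6 of 8 for *Il6ra*. In every group it also had the largest share of pairs not counted on a gene. In untreated clone A2 that share was 34.0% in replicate 1, 28.5% in replicate 2 and 26.7% in replicate 3. Its part in the receptor values was not tested. Nothing in the labels says that replicates were separate cultures, so the tests measure the spread between libraries, which may be technical. In bulk RNA, fewer cells with a message and less message per cell cannot be told apart.

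*Il6st* lies on chromosome 13 of GRCm38 (chr13:112464070-112510086, plus strand), *Il6ra* on chromosome 3 (chr3:89864059-89913196, minus strand), and *Lifr* and *Osmr* on chromosome 15 (chr15:7090614-7197489, plus strand, and chr15:6813577-6874969, minus strand). *Il11ra1* and *Cntfr* are neighbors on chromosome 4 (chr4:41699989-41769474, plus strand, and chr4:41657498-41697089, minus strand). Of the 50-base stretches of the *Il11ra1* exons, 46.3% also occur in *Gm13305* and 15.8% in *Il11ra2*, and the gene overlaps *Galt* on the same strand. Its counts are therefore uncertain, because pairs that match several places were not counted.

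The stretches around the transcription start of 4 of the genes are shown, those of the shared subunit (*Il6st*), of the signalling partners (*Osmr* and *Lifr*) and of the IL-6 receptor (*Il6ra*), because these carry most of the receptor message in the cells. Each runs 5′ to 3′ from 250 bases before to 50 after a RefSeq start (GRCm38.p6). The windows are chr15:6874264-6874563 (minus strand) for *Osmr*, chr15:7129322-7129621 (plus strand) for the first of 2 *Lifr* starts, chr3:89913147-89913446 (minus strand) for *Il6ra* and chr13:112463820-112464119 (plus strand) for *Il6st*. Capitals mark matches to an AP-1 motif (TGANTCA) or a CRE half-site (TGACG, the core of the CREB motif), on either strand.
Osmr: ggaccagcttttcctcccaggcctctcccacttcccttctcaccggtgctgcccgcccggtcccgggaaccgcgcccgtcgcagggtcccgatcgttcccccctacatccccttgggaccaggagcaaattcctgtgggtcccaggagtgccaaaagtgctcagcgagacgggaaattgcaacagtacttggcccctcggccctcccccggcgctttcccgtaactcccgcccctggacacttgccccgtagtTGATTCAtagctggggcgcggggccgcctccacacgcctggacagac
Lifr: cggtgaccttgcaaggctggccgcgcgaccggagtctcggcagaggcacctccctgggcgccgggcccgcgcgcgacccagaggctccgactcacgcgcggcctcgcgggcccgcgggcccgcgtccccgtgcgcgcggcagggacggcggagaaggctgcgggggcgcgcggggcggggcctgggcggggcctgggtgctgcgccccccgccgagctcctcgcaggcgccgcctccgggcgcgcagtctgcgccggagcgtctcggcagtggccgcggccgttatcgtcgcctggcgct
Il6ra: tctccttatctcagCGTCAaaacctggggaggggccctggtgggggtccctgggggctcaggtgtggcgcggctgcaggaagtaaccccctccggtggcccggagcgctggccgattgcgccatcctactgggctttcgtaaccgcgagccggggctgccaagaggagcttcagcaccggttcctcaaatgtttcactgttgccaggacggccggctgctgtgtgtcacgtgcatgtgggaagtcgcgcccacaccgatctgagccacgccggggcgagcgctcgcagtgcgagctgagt
Il6st: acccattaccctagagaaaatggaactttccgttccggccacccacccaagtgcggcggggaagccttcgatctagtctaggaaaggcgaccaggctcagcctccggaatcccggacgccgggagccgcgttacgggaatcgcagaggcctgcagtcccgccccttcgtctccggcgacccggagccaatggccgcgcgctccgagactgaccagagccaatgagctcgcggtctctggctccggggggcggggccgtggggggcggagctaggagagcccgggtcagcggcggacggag

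RefSeq gave 13 such windows for the 6 genes, and each gene had at least 1. None of the 13 held a STAT motif (TTCNNNGAA) or a full CRE (TGACGTCA, which contains the half-site), which 8.29% and 1.79% of all 32817 windows in the table hold. The only AP-1 match lay 4 bases after the start of *Osmr*, and 7.81% of all windows hold one. The only CRE half-site lay 236 bases before the start of *Il6ra*, and 20.8% of all windows hold one. A looser motif close to that of NF-κB (GGG and CC separated by any 5 letters) was found in every window of *Il6st*, *Il6ra*, *Lifr* and *Osmr*. It was found in the first *Il11ra1* window but not the second, and in 1 of the 6 *Cntfr* windows, but also in 50.8% of all windows. These are matches of letters in short windows and say nothing of binding.

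Compared per length, as CPM per kb of exon, *Il6st* was the most abundant of the 6 messages in every group. In untreated wild-type MEFs it made up 70.4% ± 1.00 (SD, n = 3) of their summed level, followed by *Lifr* with 17.0% ± 1.25, *Il6ra* with 7.75% ± 0.582, *Osmr* with 3.10% ± 0.416 and *Il11ra1* with 1.73% ± 0.108, and no *Cntfr* was counted. In untreated *Lkb1*-/- MEFs *Osmr* was second, with 24.4% ± 1.89 of the sum, and *Lifr* next with 10.05% ± 1.04. *Il6st* made up 57.4% ± 0.528 there, *Il6ra* 4.82% ± 0.346, *Il11ra1* 3.19% ± 0.448 and *Cntfr* 0.199% ± 0.0317. *Osmr* was likewise second in untreated clone A1 with 18.5% ± 0.969 and in untreated clone A2 with 22.2% ± 0.764. *Lifr* followed it closely in clone A2, with 18.0% ± 3.18.

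**Figure D1:**
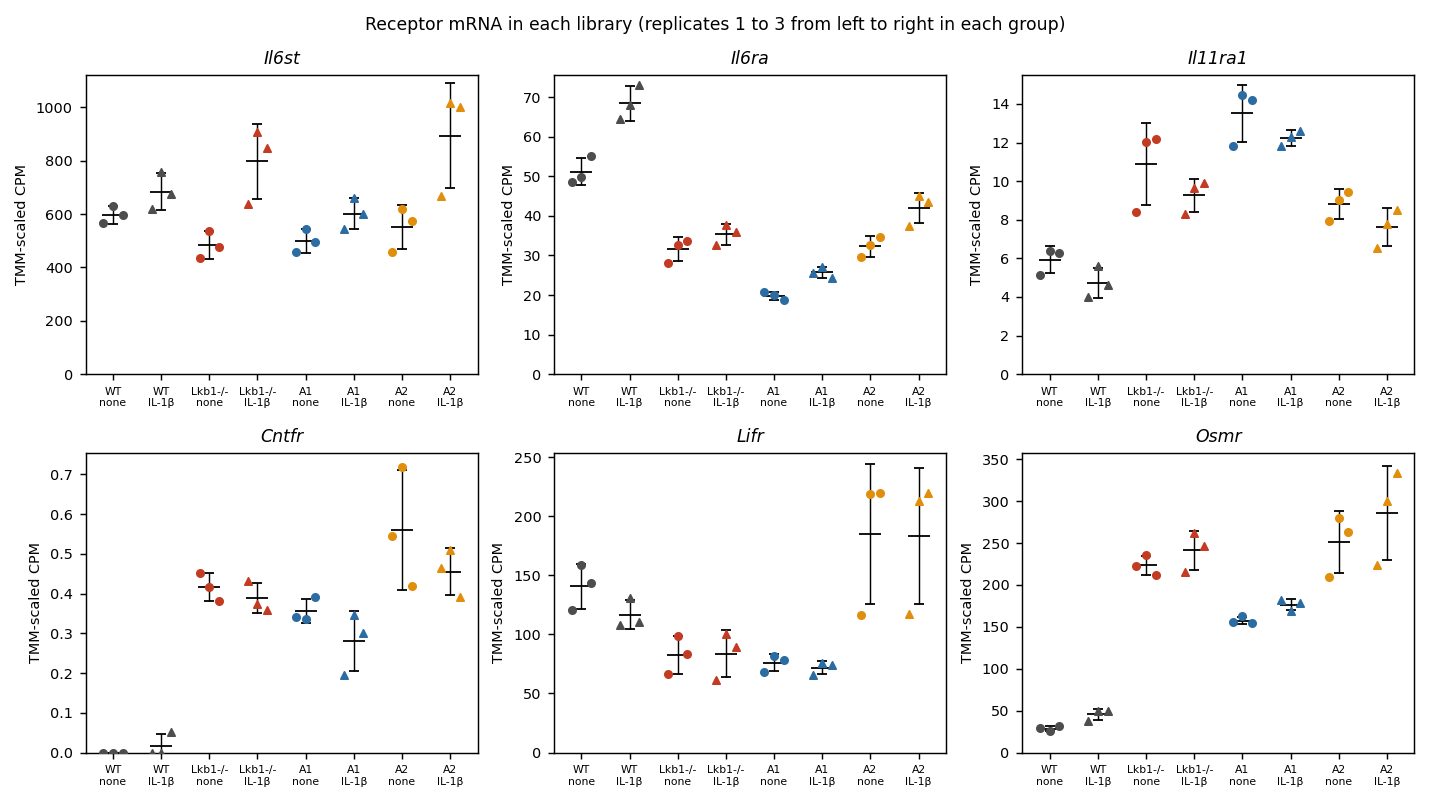
TMM-scaled CPM of the 6 receptor genes (a panel each, axis from 0) in the 8 groups. Points are libraries, circles untreated and triangles IL-1β, and bars give the mean and SD of 3 libraries. *Osmr* stayed at or under 49.7 CPM in the wild-type libraries and was at 154 CPM or more in all others, and replicate 1 of clone A2 stands apart from replicates 2 and 3 for *Lifr*.

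Between untreated *Lkb1*-/- and wild-type MEFs, 3 of the 6 genes were called higher (*Osmr*, *Il11ra1* and *Cntfr*) and 2 lower (*Il6ra* and *Lifr*) at a false discovery rate (FDR) under 0.05 in edgeR's quasi-likelihood test over 17522 genes. Of all genes tested, 30.1% were called higher and 25.8% lower in this comparison. After IL-1β the same 3 genes were called higher and *Il6ra* lower, where 30.2% of all genes were called higher and 27.1% lower. With most genes called, the number of receptors called does not set them apart, and the single changes are described by their size and direction. In untreated clone A1 against *Lkb1*-/- MEFs, 2 receptors were called, *Il6ra* and *Osmr*, both lower (all genes, 18.9% higher and 16.4% lower), and in untreated clone A2 1 was called, *Lifr*, higher (all genes, 17.1% higher and 15.1% lower). After IL-1β, clone A1 had *Il11ra1* called higher and 3 genes called lower, *Il6st*, *Il6ra* and *Osmr* (all genes, 19.4% higher and 17.3% lower), and clone A2 had *Il6ra* and *Lifr* called higher (all genes, 17.1% higher and 15.8% lower). A fit that took replicate numbers as blocks called 3 of the 6 in untreated clone A2 and 4 after IL-1β, beside 45.9% and 46.6% of all genes. Against untreated wild-type MEFs, *Osmr*, *Il11ra1* and *Cntfr* were called higher in both untreated clones, with *Il6ra* and *Lifr* lower in clone A1 and *Il6ra* lower in clone A2. The share of all genes called was 30.3% (higher) and 25.1% (lower) for clone A1, and 32.7% (higher) and 27.9% (lower) for clone A2. All 6 genes passed the filter on low counts, but *Cntfr* passed only through the groups in which it was counted, and it adds nothing to these counts beyond that. The comparisons with the same *Lkb1*-/- or wild-type libraries share them and are not independent of each other.

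**Figure D2:**
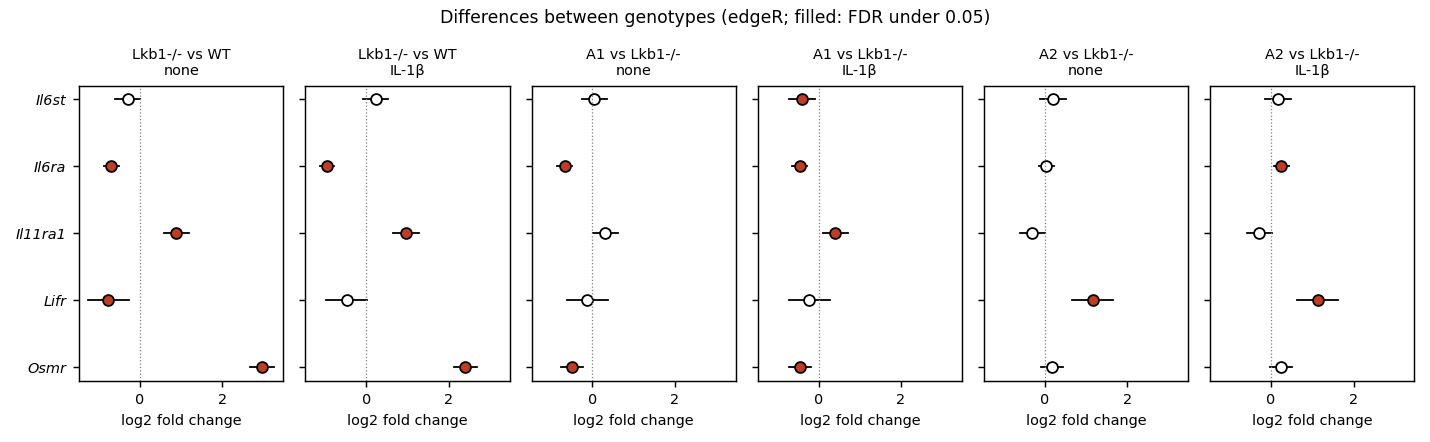
Log2 fold changes (points) with their 95% intervals (lines) from edgeR for 5 receptor genes in 6 comparisons of genotypes, filled where the FDR was under 0.05. *Cntfr* is left out because no wild-type library held more than 2 of its counts. *Osmr* stands at 2.96 and 2.40 in the comparisons of *Lkb1*-/- with wild-type MEFs, and *Lifr* at 1.16 and 1.13 in those of clone A2 with *Lkb1*-/- MEFs.

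*Il6st*, which encodes the shared subunit gp130, differed little between untreated genotypes. The untreated wild-type libraries held 565, 632 and 596.5 CPM, and the untreated *Lkb1*-/- libraries 436, 538 and 478 CPM. The ranges did not overlap, but the log2 fold change of −0.31 (SE 0.150) missed the threshold (FDR = 0.0901), and it passed with the replicate number as a block (FDR = 0.000667). In untreated clone A1 the libraries held 458, 544 and 495 CPM, and in untreated clone A2 460, 620 and 574 CPM. Neither clone differed from *Lkb1*-/- MEFs by more than the spread, with log2 fold changes of 0.04 in clone A1 (95% interval −0.27 to 0.36, FDR = 0.853), and of 0.19 for clone A2 (−0.12 to 0.50, FDR = 0.372, or 0.0434 with the block). Against untreated wild-type MEFs clone A1 stood at −0.26 (FDR = 0.150, or 0.00292 with the block) and clone A2 at −0.12 (FDR = 0.524).

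After IL-1β *Il6st* was the receptor message with the largest rise in *Lkb1*-/- MEFs. Those libraries held 639, 906 and 849 CPM, all above the untreated ones, and the log2 fold change was 0.72 (SE 0.150, FDR = 0.00463). Clone A2 rose by 0.70 (SE 0.150, FDR = 0.00579), to 668, 1014 and 999.7 CPM, again without overlap, but the call was lost with only the compared groups in the fit (FDR = 0.102). In clone A1 the IL-1β libraries held 544, 659 and 601 CPM, with a log2 fold change of 0.27 (FDR = 0.577, or 0.0195 with the block), and in wild-type MEFs they held 619, 757 and 675 CPM, with a log2 fold change of 0.19 (FDR = 0.725). Under IL-1β the order by mean was clone A2, *Lkb1*-/-, wild type and clone A1, and neighbors in that order overlapped. *Lkb1*-/- and wild-type MEFs then differed by 0.22 (FDR = 0.213, or 0.0125 with the block), so that the sign of their difference was opposite to that without treatment. Clone A1 was lower than *Lkb1*-/- MEFs by −0.41 (SE 0.150, FDR = 0.0374), but the libraries overlapped and the call was lost with unstranded counts (FDR = 0.0705) and in 4 of 6 fits that left out 1 library, without replicate 2 or 3 of the IL-1β-treated *Lkb1*-/- group (FDR = 0.173 and 0.104) or replicate 1 or 3 of the IL-1β-treated clone A1 (FDR = 0.135 and 0.0859). Clone A2 differed from *Lkb1*-/- MEFs by 0.16 (FDR = 0.445, and 0.0389 without replicate 1 of the IL-1β-treated clone A2).

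*Il6ra*, whose product is the alpha subunit that makes a cell responsive to IL-6 itself, was highest in wild-type MEFs. The untreated wild-type libraries held 48.7, 49.7 and 55.1 CPM and the untreated *Lkb1*-/- libraries 28.2, 32.7 and 33.8 CPM. These ranges lay well apart, with a log2 fold change of −0.70 (SE 0.0871, FDR = 6.26e-07). After IL-1β the values were 64.4, 67.9 and 73.0 CPM in the wild-type libraries and 32.6, 37.6 and 35.8 CPM in *Lkb1*-/- MEFs, and the difference was −0.95 (SE 0.0870, FDR = 5.78e-09).

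Clone A1 held the least *Il6ra* of the 4 genotypes. Its untreated libraries had 20.7, 20.0 and 18.7 CPM, −0.67 on the log2 scale against *Lkb1*-/- MEFs (SE 0.0884, FDR = 4.75e-06) and −1.37 against wild-type MEFs (SE 0.0889, FDR = 2.69e-11), and its IL-1β libraries had 25.6, 27.1 and 24.4 CPM, −0.46 against *Lkb1*-/- MEFs (SE 0.0876, FDR = 0.000300). Untreated clone A2 had 29.5, 32.7 and 34.7 CPM, which overlapped with *Lkb1*-/- MEFs (log2 fold change 0.03, 95% interval −0.15 to 0.22, FDR = 0.810) and lay under wild-type MEFs by −0.66 (SE 0.0870, FDR = 1.04e-06). After IL-1β clone A2 had 37.6, 45.0 and 43.4 CPM, and its higher level than in *Lkb1*-/- MEFs (0.25, SE 0.0868, FDR = 0.0321) was lost without filtering (FDR = 0.0843), with only these groups in the fit (FDR = 0.0851), and without replicate 1 of the IL-1β-treated *Lkb1*-/- group (FDR = 0.148) or replicate 2 or 3 of the IL-1β-treated clone A2 (FDR = 0.0819 and 0.0876).

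*Il6ra* was called higher with IL-1β in 3 of the 4 genotypes in the fit without a replicate block. The log2 fold changes were 0.42 in wild-type MEFs (SE 0.0862, FDR = 0.00788), 0.38 in clone A1 (SE 0.0886, FDR = 0.0268) and 0.38 in clone A2 (SE 0.0869, FDR = 0.00993), and treated and untreated libraries did not overlap in any of these genotypes. In *Lkb1*-/- MEFs the libraries overlapped and the change was 0.16 (95% interval −0.02 to 0.35, FDR = 0.414, or 0.00763 with replicate blocks set within genotype). Each treated *Lkb1*-/- library nevertheless lay above the untreated one of the same number. The call in wild-type MEFs was lost without replicate 2 of the untreated group (FDR = 0.0611) or replicate 3 of the treated group (FDR = 0.0549). That in clone A1 was lost in 5 of 6 fits that left out 1 library, with an FDR of 0.0515 without replicate 1, 0.0881 without replicate 2 and 0.158 without replicate 3 of the untreated group, and of 0.0804 and 0.140 without replicates 1 and 2 of the treated group. That in clone A2 was lost with only those groups in the fit (FDR = 0.0749).

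*Il11ra1*, which encodes the alpha subunit for IL-11, was low in all groups and lowest in wild-type MEFs. The untreated wild-type libraries held 5.11, 6.40 and 6.26 CPM and the untreated *Lkb1*-/- libraries 8.42, 12.04 and 12.2 CPM. The groups did not overlap, and the log2 fold change was 0.88 (SE 0.148, FDR = 3.12e-05). After IL-1β the values were 4.02, 5.58 and 4.60 CPM in the wild-type libraries and 8.28, 9.64 and 9.88 CPM in *Lkb1*-/- MEFs, a difference of 0.97 (SE 0.150, FDR = 1.08e-05).

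The clones lay on either side of *Lkb1*-/- MEFs for this gene. Clone A1 held 11.8, 14.5 and 14.2 CPM untreated and 11.8, 12.3 and 12.6 CPM after IL-1β, the highest of the 4 genotypes. Against *Lkb1*-/- MEFs it stood at 0.31 untreated (SE 0.144, FDR = 0.0995, or 0.00269 with the block) and at 0.40 after IL-1β (SE 0.145, FDR = 0.0349), and against untreated wild-type MEFs at 1.19 (SE 0.148, FDR = 6.04e-07). The call after IL-1β was lost in 5 of 6 fits that left out 1 library, with an FDR of 0.136 without replicate 1 and 0.0600 without replicate 2 of the treated *Lkb1*-/- group, and of 0.0545, 0.0782 and 0.0559 without replicates 1, 2 and 3 of the treated clone A1. Clone A2 held 7.94, 9.01 and 9.44 CPM untreated, −0.31 against *Lkb1*-/- MEFs (FDR = 0.116, or 0.00619 with the block, and 0.0206 without replicate 1 of the untreated *Lkb1*-/- group) and 0.57 against wild-type MEFs (SE 0.148, FDR = 0.00219). After IL-1β it held 6.55, 7.80 and 8.52 CPM, −0.28 against *Lkb1*-/- MEFs (FDR = 0.153, or 0.00922 with the block).

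Treated and untreated libraries overlapped for *Il11ra1* in every genotype. The IL-1β changes were −0.32 in wild-type (FDR = 0.425, or 0.0302 with the block), −0.23 in *Lkb1*-/- (FDR = 0.523), −0.14 in clone A1 (FDR = 0.828) and −0.21 in clone A2 (FDR = 0.529). Each of the 12 treated libraries lay under the untreated one of the same number and genotype, but no estimate passed the threshold without the block.

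*Cntfr*, which encodes the alpha subunit for CNTF, was near the floor of these libraries. It had 0 counts in each untreated wild-type library and 0, 0 and 2 counts in the IL-1β-treated ones. The untreated *Lkb1*-/- libraries held 20, 18 and 16 counts, untreated clone A1 14, 14 and 17, and untreated clone A2 27, 31 and 19. After IL-1β the *Lkb1*-/- libraries held 18, 18 and 15 counts, clone A1 8, 15 and 12, and clone A2 21, 24 and 16. Every library of these 3 genotypes thus held more counts than any wild-type library. Taking 3 counts per library as the floor for a count of 0, untreated levels were at least 5.84-fold higher than in wild-type MEFs in *Lkb1*-/- MEFs, at least 4.98-fold in clone A1 and at least 7.84-fold in clone A2. The 6 libraries of *Lkb1*-/- MEFs held at most 0.453 CPM, and those of the clones at most 0.718 CPM. Neither clone was called against *Lkb1*-/- MEFs in either treatment, and the gene was called for IL-1β in no genotype, with FDR values from 0.543 in wild-type to 0.939 in *Lkb1*-/- MEFs. A count of 0 limits the wild-type level only to under 3 counts per library, and does not show that the gene is silent.

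*Lifr*, whose product pairs with gp130 for LIF and also serves CNTF, was lower in *Lkb1*-/- MEFs and clone A1 and highest by mean in clone A2. The untreated wild-type libraries held 121, 159 and 143 CPM, and the untreated *Lkb1*-/- libraries 66.1, 98.5 and 83.6 CPM. The ranges did not overlap, with a log2 fold change of −0.77 (SE 0.234, FDR = 0.00812). After IL-1β the values were 108, 131 and 111 CPM in the wild-type libraries and 61.5, 99.9 and 89.6 CPM in *Lkb1*-/- MEFs, again without overlap, but the log2 fold change of −0.48 (SE 0.234) missed the threshold (FDR = 0.0862, or 0.00101 with the block).

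Clone A2 held more *Lifr* than the *Lkb1*-/- MEFs it came from, and clone A1 did not. Untreated clone A2 had 116, 219 and 219 CPM and IL-1β-treated clone A2 117, 213 and 219.9 CPM, so that replicate 1 lay far under replicates 2 and 3 in each treatment, as it was lowest in the other groups. Each of these libraries lay above all *Lkb1*-/- libraries, with log2 fold changes of 1.16 untreated (SE 0.235, FDR = 0.000678, and at most 0.00427 with any 1 library left out) and 1.13 after IL-1β (SE 0.235, FDR = 0.000808). Clone A1 had 68.0, 82.0 and 78.0 CPM untreated and 65.5, 75.6 and 73.9 CPM after IL-1β, which overlapped with *Lkb1*-/- MEFs (log2 fold changes −0.12, 95% interval −0.61 to 0.36, FDR = 0.733, and −0.22, −0.71 to 0.26, FDR = 0.506). Against untreated wild-type MEFs clone A1 was lower by −0.89 (SE 0.235, FDR = 0.00283), and clone A2 stood at 0.39 (FDR = 0.151, or 0.0127 with the block and 0.0189 without replicate 1 of untreated clone A2).

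For *Lifr*, treated and untreated libraries overlapped in all 4 genotypes. In wild-type MEFs and clone A1 each treated library nevertheless lay under the untreated one of the same number. The changes were −0.27 in wild-type MEFs (95% interval −0.76 to 0.21, FDR = 0.764, or 7.74e-05 with replicate blocks set within genotype), 0.02 in *Lkb1*-/- MEFs (−0.47 to 0.50, FDR = 0.989), −0.01 in clone A2 (−0.50 to 0.47, FDR = 0.989) and −0.08 in clone A1 (−0.57 to 0.40, not called).

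*Osmr*, whose product joins gp130 to form the main receptor for oncostatin M, showed the largest difference between genotypes of the 5 receptors counted in every group. The untreated wild-type libraries held 28.9, 25.7 and 31.4 CPM, and the untreated *Lkb1*-/- libraries 222, 235 and 212 CPM. This is a 7.80-fold difference, a log2 fold change of 2.96 (SE 0.139, FDR = 1.31e-13) that lay between 2.89 and 2.97 with any 1 library left out. After IL-1β the values were 37.8, 49.2 and 49.7 CPM in the wild-type libraries and 215, 262 and 246 CPM in *Lkb1*-/- MEFs, a 5.29-fold difference (log2 fold change 2.40, SE 0.135, FDR = 2.49e-12).

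The clones differed from *Lkb1*-/- MEFs less for this gene, and the difference was called in 1 of the 2. Untreated clone A1 held 156, 163 and 154 CPM and IL-1β-treated clone A1 181, 169 and 179 CPM, under every *Lkb1*-/- library of the same treatment, with log2 fold changes of −0.50 (SE 0.128, FDR = 0.00380) and −0.45 (SE 0.128, FDR = 0.00843). Untreated clone A2 held 209.7, 280.35 and 263 CPM and IL-1β-treated clone A2 224, 300.5 and 333 CPM, which overlapped with *Lkb1*-/- MEFs. Its log2 fold changes were 0.17 (FDR = 0.347) and 0.25 (FDR = 0.154, or 0.0491 with the block and 0.00766 without replicate 1 of the treated clone A2). Against untreated wild-type MEFs both clones stayed high, by 2.46 in clone A1 (SE 0.136, FDR = 2.10e-12) and 3.13 in clone A2 (SE 0.140, FDR = 4.96e-14).

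*Osmr* rose with IL-1β in wild-type MEFs, at a log2 fold change of 0.67 (SE 0.132, FDR = 0.00538), with no overlap between treated and untreated libraries. The call was lost without replicate 2 of the untreated wild-type group (FDR = 0.0584). In the other genotypes the changes were 0.11 in *Lkb1*-/- (95% interval −0.15 to 0.38, FDR = 0.780), 0.16 in clone A1 (−0.10 to 0.43, FDR = 0.759) and, for clone A2, 0.19 (−0.08 to 0.45, FDR = 0.507). Even after IL-1β, the highest wild-type library (49.7 CPM) held less *Osmr* than the lowest untreated library of any other genotype (154 CPM).

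Read across the family, the receptors called for IL-1β without the block were all higher. In wild-type MEFs 2 of the 6 were called higher, *Il6ra* and *Osmr* (all genes, 1.53% higher and 0.731% lower), and in *Lkb1*-/- MEFs 1, *Il6st* (all genes, 2.65% higher and 2.09% lower). In clone A1 1 was called higher, *Il6ra* (all genes, 1.2% higher and 0.788% lower; 2 of 6 with the block, which called 9.61% of all genes), and in clone A2 2, *Il6st* and *Il6ra* (all genes, 2.81% higher and 2.86% lower; neither was called with only those groups in the fit, at an FDR of 0.102 and 0.0749). Without *Cntfr*, whose wild-type estimate rests on 0 to 2 counts per library, the median log2 fold change of the other 5 was 0.19 in wild-type, 0.11 in *Lkb1*-/-, 0.16 in clone A1 and 0.19 in clone A2, beside −0.02 to 0.00 over all genes tested. With the replicate block, *Il11ra1* was also called in wild-type MEFs, lower. With the block within genotype 5 receptors were called in wild-type MEFs, *Il6st*, *Il6ra* and *Osmr* higher and *Lifr* and *Il11ra1* lower (FDR = 0.0190 for *Il11ra1*), 2 in *Lkb1*-/- MEFs, with *Il6ra* added (FDR = 0.00763), 2 in clone A1, with *Il6st* added (FDR = 0.000439), and 3 in clone A2, with *Osmr* added (FDR = 0.0437). That fit called 16.1%, 22.6%, 16.3% and 26% of all genes in the same order.

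**Figure D3:**
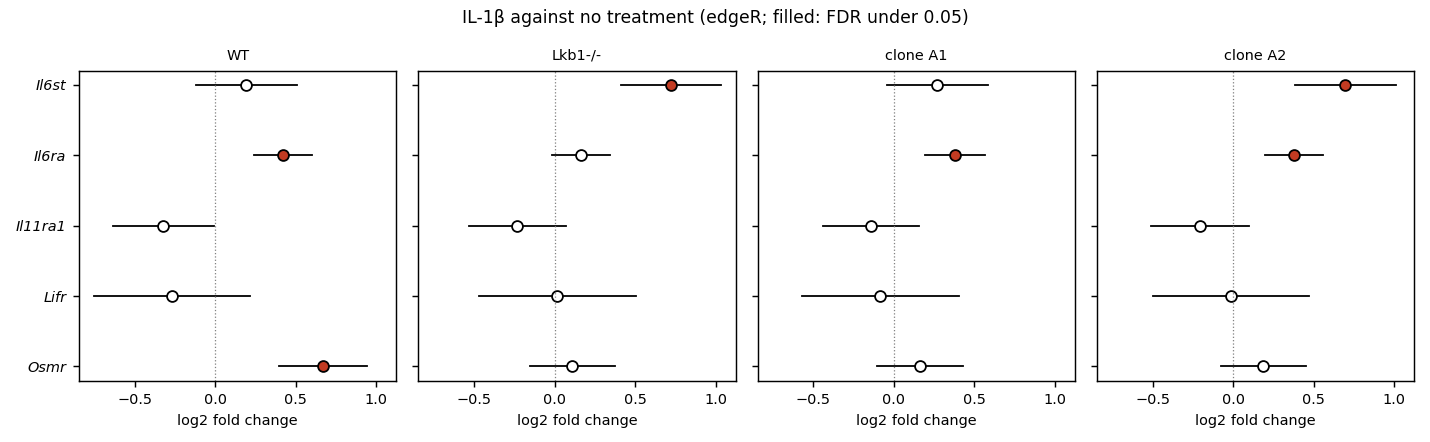
Log2 fold changes with IL-1β (points) and their 95% intervals (lines) from edgeR for 5 receptor genes in the 4 genotypes, filled where the FDR was under 0.05 in the fit without a replicate block; *Cntfr* is left out. *Il6st* was called in *Lkb1*-/- MEFs (0.72) and clone A2 (0.70), *Il6ra* in each genotype but *Lkb1*-/-, and *Osmr* in wild-type MEFs alone (0.67).

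Whether these responses differed between genotypes was tested directly. No receptor was called for a difference between *Lkb1*-/- and wild-type responses (0 of 6, with 0.245% of all genes called), between clone A1 and *Lkb1*-/- (0 of 6, 0.0285% of all genes) or between clone A2 and *Lkb1*-/- (0 of 6, 0% of all genes, where 388 genes had an unadjusted p under 0.05 and DESeq2 called 12) in edgeR's test, and DESeq2 called 0 receptors in each as well. Unadjusted p-values were under 0.05 for 3, 1 and 0 of the 6, beside 5.62%, 2.47% and 2.21% of all genes. The block within genotype called 4 (*Il6st*, *Il6ra*, *Lifr* and *Osmr*), 1 (*Il6st*) and 0, beside 5.72%, 1.52% and 1.04% of all genes. For *Il6st* the response of *Lkb1*-/- MEFs exceeded that of wild-type MEFs by 0.53 (95% interval 0.09 to 0.97, FDR = 0.732, or 0.00570 with the block), and for *Osmr* it fell short by −0.56 (−0.94 to −0.18, FDR = 0.456, or 0.0499 with the block). For *Il6ra* the response of *Lkb1*-/- MEFs lay under that of wild-type MEFs by −0.26 (FDR = 0.888, or 0.0106 with the block within genotype). The response of clone A1 for *Il6st* lay −0.45 under that of *Lkb1*-/- MEFs (−0.89 to −0.01, not called). Its FDR was 0.0815 with the block and 0.000967 with the block within genotype. A rise called in 1 genotype and not in another is therefore not shown to differ between them without the block.

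The balance of the signalling partners turned over between wild-type and LKB1-deficient MEFs. Per kb of exon, the ratio of *Osmr* to *Lifr* averaged 0.184 ± 0.0356 (SD, n = 3) without treatment in wild-type MEFs and 2.46 ± 0.463 in untreated *Lkb1*-/- MEFs. It was 1.85 ± 0.158 in clone A1 and 1.27 ± 0.293 in clone A2. In every wild-type library *Lifr* outweighed *Osmr*, with ratios of at most 0.400 after IL-1β, and in each of the other 18 libraries *Osmr* outweighed *Lifr*, with ratios of at least 1.07.

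A similar shift was seen among the alpha subunits, at much lower levels. The ratio of *Il11ra1* to *Il6ra* per kb was 0.224 ± 0.0232 in untreated wild-type, 0.662 ± 0.0730 in untreated *Lkb1*-/-, 1.33 ± 0.194 in clone A1 and 0.526 ± 0.00635 in clone A2. The ratios depend on the length used. Per kb of coding sequence, untreated clone A1 held 10.4 CPM of *Il11ra1* and 14.3 CPM of *Il6ra*, so that *Il6ra* was then the higher, whereas the order of the genotypes does not change with the length. *Il6ra* stood at 0.110 ± 0.00880 of the *Il6st* level in untreated wild-type and at 0.0840 ± 0.00633 in untreated *Lkb1*-/- MEFs, and at 0.0512 ± 0.00587 in clone A1 and 0.0759 ± 0.00754 in clone A2, per kb of exon. Per kb of coding sequence the untreated wild-type levels were 37.1 CPM of *Il6ra* and 217 CPM of *Il6st*.

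**Figure D4:**
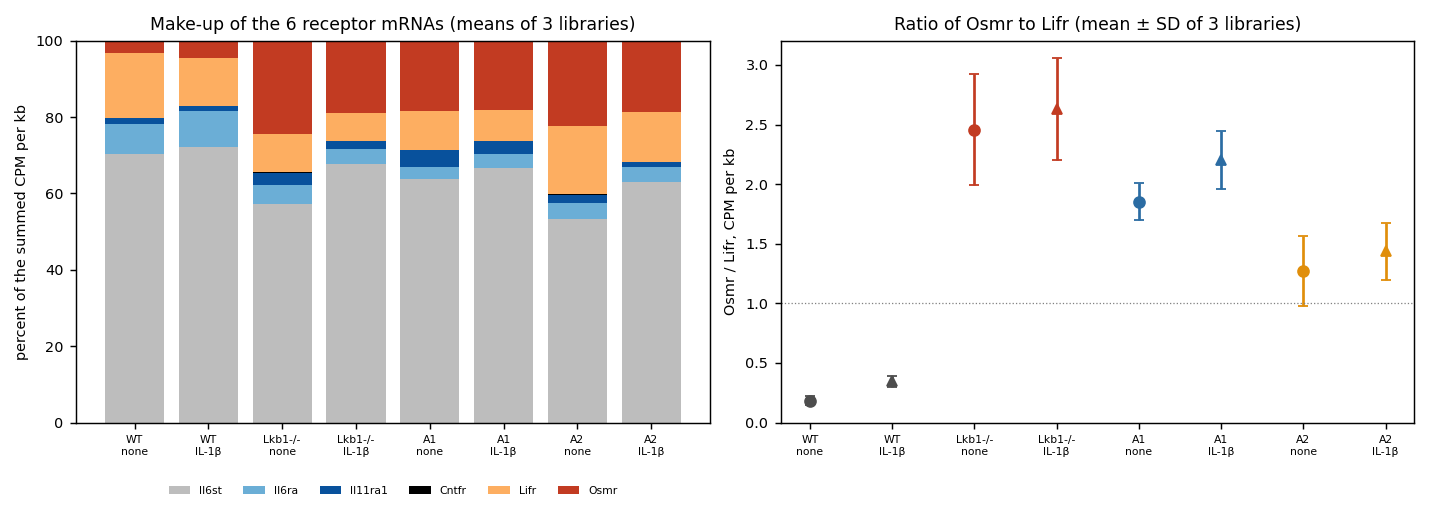
Left, percent that each receptor gene takes of their summed CPM per kb of exon (stacked means of 3 libraries) in the 8 groups. Right, the ratio of *Osmr* to *Lifr* in CPM per kb (mean ± SD, n = 3), which was under 1 in wild-type MEFs (0.184 untreated) and over 1 in the other genotypes (2.46 in untreated *Lkb1*-/- MEFs).

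Of 11 ligand and ligand-partner genes of the family, 7 passed the filter. In untreated *Lkb1*-/- against wild-type MEFs 5 were called higher (*Il6*, *Il11* and *Cntf* among them) and 2 lower (*Lif* and *Ctf1*), and after IL-1β 6 were called higher and 0 lower. The shares over all genes were 30.1% higher and 25.8% lower untreated, and 30.2% and 27.1% after IL-1β. The list was chosen with results of these libraries known, so its direction is not independent evidence. *Il6* was at 0.121 ± 0.0473 CPM in untreated wild-type and 1.89 ± 0.411 CPM in untreated *Lkb1*-/- MEFs, and after IL-1β at 3.72 ± 1.07 and 118 ± 8.39 CPM. After IL-1β clone A1 reached 5.88 ± 0.0901 CPM of *Il6* and clone A2 15.99 ± 5.56 CPM, and *Il6* and *Lif* were the 2 of 7 ligand genes called higher with IL-1β in each of the 4 genotypes, where 1.53%, 2.65%, 1.2% and 2.81% of all genes were called higher in wild-type, *Lkb1*-/-, clone A1 and clone A2. The group with the most *Il6*, IL-1β-treated *Lkb1*-/- MEFs, thus held 35.3 ± 2.57 CPM of *Il6ra*, beside 68.4 ± 4.33 CPM in IL-1β-treated wild-type MEFs.

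*Il11* and *Il11ra1* were both higher in *Lkb1*-/- than in wild-type MEFs. Without treatment *Il11* was at 1.18 ± 0.654 CPM in wild-type cells and 12.1 ± 1.67 CPM in *Lkb1*-/- MEFs (log2 fold change 3.34, SE 0.292, FDR = 2.80e-09), and at 1.93 ± 0.220 CPM in untreated clone A1 and 1.20 ± 0.194 CPM in untreated clone A2. Both clones therefore kept *Il11ra1* above the wild-type level, while *Il11* was not called against wild type in either. Its FDR was just over the threshold in clone A1 (0.0558) and 0.971 in clone A2. After IL-1β *Lif* was at 21.95 ± 1.27 CPM in wild-type cells, 76.6 ± 7.53 CPM in *Lkb1*-/- MEFs, 42.1 ± 0.685 CPM in clone A1 and 18.7 ± 2.42 CPM in clone A2.

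*Osm*, which encodes the ligand that gives OSM receptor its name, had at most 1 count in any of the 24 libraries, in a single library of IL-1β-treated *Lkb1*-/- MEFs. Of the other receptors of the family, *Il31ra* had at most 3 counts and *Il27ra* at most 13, and neither passed the filter. *Il11ra2* had 0 counts in all libraries, but it shares sequence with *Il11ra1* and pairs that match both were not counted, so its level was not measured here.

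**Figure D5:**
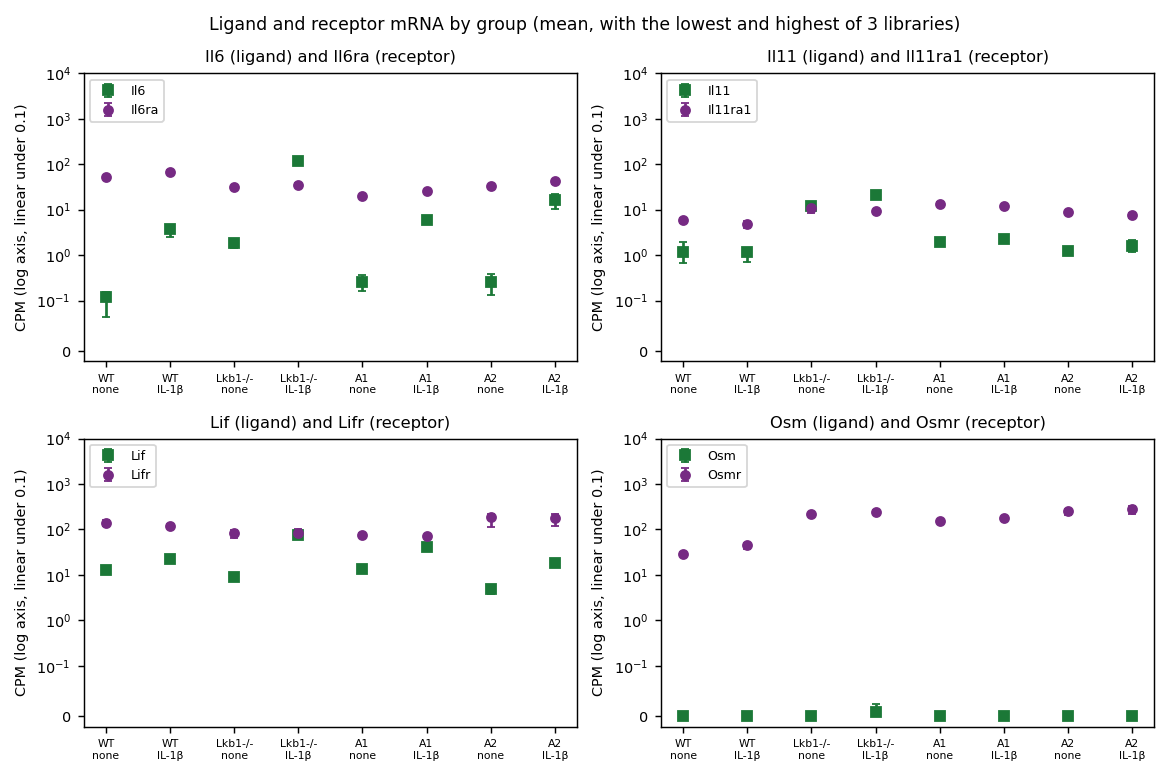
Mean CPM (markers, with the lowest and highest of 3 libraries as bars) of 4 ligands (green squares) and of the receptor of each (purple circles) by group, on a log axis that is linear under 0.1. Levels are to be compared between groups and not between genes. *Il6* rose to 118 CPM in IL-1β-treated *Lkb1*-/- MEFs where *Il6ra* was at 35.3 CPM, and *Osm* stayed at the floor in every group.

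Downstream of the receptors, 7 kinases and transcription factors were measured. Of these, 1 was called higher (*Stat5a*, 0.57) and 3 lower (*Jak1*, −0.36, *Tyk2*, −0.25, and *Stat5b*, −1.19) in untreated *Lkb1*-/- against wild-type MEFs, and their median was −0.25 on the log2 scale beside 0.04 over all genes, of which 30.1% were called higher and 25.8% lower. *Stat3* was at 162 ± 14.1 CPM in untreated wild-type and 212 ± 20.9 CPM in untreated *Lkb1*-/- MEFs (0.39, FDR = 0.0674), and lower in clone A1 than in *Lkb1*-/- MEFs untreated (−0.60, SE 0.176, FDR = 0.0104). Of 7 inhibitors and phosphatases, *Socs3*, the feedback inhibitor of gp130, was called higher and *Socs2*, which acts mainly on growth hormone signalling, lower. *Socs3* held 20.6 ± 1.58 CPM in untreated wild-type, 47.8 ± 7.18 CPM in untreated *Lkb1*-/- MEFs, 36.0 ± 5.04 CPM in clone A1 and 77.0 ± 24.9 CPM in clone A2, and *Socs2* 35.4 ± 0.875 CPM in untreated wild-type and 0.604 ± 0.111 CPM in untreated *Lkb1*-/- MEFs. Against *Lkb1*-/- MEFs, untreated clone A1 had 1 kinase or transcription factor called higher and 2 lower and clone A2 3 higher and 1 lower, and among the inhibitors clone A1 had 1 called higher and 2 lower while clone A2 had 3 called higher. Over all genes the shares were 18.9% higher and 16.4% lower for clone A1, and 17.1% and 15.1% for clone A2. *Adam10*, 1 of 2 proteases that can shed IL-6Rα, was lower in untreated *Lkb1*-/- MEFs (−0.51, SE 0.113, FDR = 0.000571).

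Of 8 genes known to respond to STAT3, 5 were called higher in untreated *Lkb1*-/- against wild-type MEFs (*Socs3*, *Bcl3*, *Junb*, *Cebpd* and *Timp1*) and 2 lower (*Mcl1* and *Myc*), where 30.1% of all genes were called higher and 25.8% lower. Their median log2 fold change was 0.58, beside 0.04 over all genes. After IL-1β 2 of the 8 were called higher (*Socs3* and *Timp1*) and 1 lower (*Myc*) in that comparison of genotypes, with a median of 0.29 beside 0.03 over all genes, of which 30.2% were called higher and 27.1% lower. The untreated values were 1.31 for *Bcl3*, 1.21 for *Socs3*, 0.71 for *Cebpd* and −0.89 for *Myc*. Against *Lkb1*-/- MEFs, 1 of the 8 was called higher and 3 lower in untreated clone A1, and 1 higher and 4 lower in untreated clone A2. The medians were −0.48 and −0.28, beside 0.02 over all genes in each, of which 16.4% and 15.1% were called lower. *Socs3* was the one called higher in clone A2 (0.69, SE 0.249, FDR = 0.0386), although its libraries overlapped with those of *Lkb1*-/- MEFs. With IL-1β, 3 of the 8 were called higher in wild-type MEFs, 2 in *Lkb1*-/- MEFs, 2 in clone A1 and 4 in clone A2, and 0 lower, where 1.53%, 2.65%, 1.2% and 2.81% of all genes were called higher. Many other pathways act on each of these genes, and phosphorylated STAT3 was not measured in these files.

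Finally, the genes whose group means ran most like those of each receptor were listed, among 9364 genes with a mean log2 CPM above 3. Over the 8 group means, *Osmr* was closest to *Xdh* (Pearson r = 0.998), *Emilin2* (0.997) and *Tor1b* (0.994), and *Il6ra* to *Rrp1b* (0.990), *CT010467.1* (0.987) and *Lpin2* (0.985). *Il6st* was closest to *Nid1* (0.956), *D16Ertd472e* (0.951) and *Entr1* (0.926), *Il11ra1* to *Unc5c* (0.989), *Ttc8* (0.988) and *Cdkl2* (0.984), *Lifr* to *Rhobtb1* (0.983), *Prkaa1* (0.983) and *Zfp738* (0.981), and *Cntfr* to *Angpt1* (0.998), *Nsg1* (0.997) and *Pogz* (0.997). Each pair of genes was measured in the same 24 libraries. With 8 groups, 6 of which lack LKB1, any gene that is mainly higher in those 6 than in wild-type MEFs reaches a high value with *Osmr* or *Cntfr*. When likeness was taken over the 24 libraries, 2 of the 3 genes were kept for *Osmr* and for *Il11ra1* and 1 for each of the other receptors.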

How the data were processed

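RNA-seq of 24 libraries in 8 groups of 3 was used, grouped by genotype, treatment and replicate number as the labels give them. The authors trimmed paired reads with Trim Galore 0.6.0, aligned them with STAR 2.7.8a to GRCm38.p6 (GENCODE annotation) and deposited the gene counts that STAR writes, as whole numbers with no normalization. For the library kit, the sources differ (KAPA RNA HyperPrep after rRNA removal in the methods, SMARTER mRNA-Seq in the labels). The strand setting and the filter on low counts are not given in the sources used here. The second stranded column was used, which held 95.5% to 96.0% of the pairs that either stranded column assigned. The lines that name no gene held 26.7% to 34.4% of the pairs (median 28.9%) and were left out.

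Counts were analysed with edgeR 4.0.16, limma 3.58.1 and DESeq2 1.42.0 in R 4.3.3. Genes were kept by filterByExpr (minimum count 10, minimum total 15), which left 17522, and scaled with TMM factors of 0.922 to 1.09. edgeR's quasi-likelihood test (legacy method) used all 24 libraries and a coefficient for each group. FDR stands for the Benjamini-Hochberg adjusted p over those 17522 genes, and intervals are 95% intervals. The common biological coefficient of variation was 0.129. CPM per kb used the exon union of GENCODE M21, on the same build, which gave a symbol for 55230 gene identifiers and none for 241. Promoter windows came from RefSeq (26994 genes).

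The receptors, the pathway and marker lists and the rule for named genes were chosen with earlier results of these data known. Named were the 6 receptors, *Il6*, *Lif*, *Il11*, *Osm*, *Socs3*, *Stat3*, *Stk11*, *Crtc2*, up to 4 genes of each list with the largest change among those called between untreated *Lkb1*-/- and wild-type MEFs, and the 3 genes most like each receptor. *Kdr* and the other members of lists given as called were named with their lists. Some items of the ligand list are not reported here.

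Replicate numbers were taken as pairing the libraries, since the deviations from the group means of libraries with the same number correlated at 0.238 to 0.819 (median 0.561, 84 pairs, 9369 genes), those with other numbers had a median of −0.318, and 24 of 24 libraries were closest to their own number. What the number stands for is not given in the sources used here. The value with the replicate number as a block is printed beside a result where it changes the call. Alternatives were unstranded counts, other normalizations, the newer quasi-likelihood method, other filters, the block, the block within genotype, DESeq2, fitting the compared groups alone, and dropping each library in turn.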

Additional observations from a re-analysis of the deposited data

How the results depend on the processing

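No called fold change of a receptor turned its direction under any alternative run. With 1 library left out, 624 values kept their call, 20 lost it and 4 gained one, and under the other alternatives 803 kept it, 5 lost it and 43 gained one. The cause was not tested. Where a change of call is not given beside the result, the replicate block over all groups changed no call of a receptor. The block within genotype takes up the difference between genotypes, so it was used for the responses to IL-1β and gave no value for comparisons between genotypes.

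Receptors called moved from 1 to 3 of 6 with the replicate block for untreated clone A2 against *Lkb1*-/- MEFs, where the block called 45.9% of all genes. After IL-1β that comparison moved from 2 to 4 with the block (46.6% of all genes) and to 1 with only the groups compared in the fit. For the response of wild-type MEFs to IL-1β it was 2, and 5 with the block within genotype. For *Lkb1*-/- MEFs it was 1, and 2 with the block within genotype. For clone A1 it was 1, and 2 without filtering, with the block and with the block within genotype, and for clone A2 2, and 0 with only the groups compared. For the difference of response between *Lkb1*-/- and wild-type MEFs it was 0, and 2 without filtering, 2 with the block and 4 with the block within genotype, and between clone A1 and *Lkb1*-/- MEFs 0, and 1 without filtering and with the block within genotype.

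All genes called for IL-1β numbered 396 in wild-type, 831 in *Lkb1*-/-, 348 in clone A1 and 995 in clone A2. They were 954, 1428, 908 and 1643 without filtering, 1629, 2601, 1684 and 3133 with the block, and 2823, 3966, 2860 and 4557 with the block within genotype. DESeq2 called 609 in wild-type and 570 in clone A1, and the groups compared alone gave 246 in clone A2. For the difference between *Lkb1*-/- and wild-type responses the count was 43, and 347 without filtering, 311 with the block, 1003 with the block within genotype, 116 with DESeq2, 76 with upper quartile scaling, and 70 with at least 10 counts in every library or with only the groups compared. For clone A1 against *Lkb1*-/- it was 5, and 141, 36 and 267 without filtering, with the block and within genotype, 11 with DESeq2, and 3 with unstranded counts or upper quartile scaling. For clone A2 it was 0 in edgeR, and 68, 18, 183, 12 with DESeq2 and 1 with upper quartile scaling.

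With 1 library left out, receptors called ranged from 1 to 2 for untreated clone A2 and 1 to 4 after IL-1β against *Lkb1*-/- MEFs, 2 to 3 for clone A1 after IL-1β (4 with all libraries), 0 to 2 for IL-1β in wild-type MEFs and 0 to 1 in clone A1. All genes called ranged from 203 to 412, 544 to 763, 197 to 233 and 679 to 1890 for IL-1β in wild-type, *Lkb1*-/-, clone A1 and clone A2, and from 23 to 57, 0 to 4 and 0 to 1 for the differences of response.

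With coding length in place of exon length, the shares in untreated wild-type MEFs were 11.9% for *Il6ra*, 1.46% for *Il11ra1* and 13.7% for *Lifr*, and in untreated *Lkb1*-/- MEFs 56.8% for *Il6st*, 7.40% for *Il6ra*, 2.701% for *Il11ra1*, 8.11% for *Lifr* and 0.122% for *Cntfr*. Depth limits *Cntfr*, whose 24 libraries hold at most 31 counts each.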
